A study of Mus musculus with 4 samples.

Results

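The genes described here were 9 cues and receptors of nerve growth and axon guidance, Bdnf, Ntf3, Gdnf, Nts, Ngfr, Sema3a, Sema3e, Slit2 and Slit3, taken by symbol from the 32285 genes of the deposited count matrices. They were followed in single cells of the proximal lower incisor of 15 day old mice, where a library is one 10x Genomics 3′ preparation and each transcript is counted by a unique molecular identifier (UMI). WT and Din-KO mice gave 2 libraries each. Din-KO is a germline knockout in which a tm1b allele with a LacZ reporter replaces normal Din, made from a KOMP gene-trap clone. The tissue was forceps-dissected, minced, digested with liberase and cleared of dead cells in both groups. The sex of the mice and the number of mice pooled in a library are not given in the sources used here. Libraries of a group are not stated to come from separate mice, so the p-values below measure the spread between libraries only.

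Neurotrophins such as BDNF and NT-3 are secreted proteins that keep neurons alive and draw their axons into target tissue, acting through TRK kinases and through NGFR, the low-affinity receptor that Schwann cells also carry. GDNF signals through GFRA coreceptors with RET or NCAM1, and neurotensin, the product of Nts, is a secreted neuropeptide. Secreted semaphorins repel or attract axons through neuropilins and plexins, SLIT proteins do so through ROBO receptors, and in teeth dental mesenchyme is known to release such cues while the pulp and follicle are being innervated.

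The 4 libraries held 3257 to 6958 barcodes and 32198098 to 54348039 UMIs, and 1272 to 4575 cells per library passed the filters, 11310 of 20502 barcodes in all. Cells were grouped into 30 clusters, and markers placed all but 2 of them, with 344 cells, in 13 classes. Those 344 cells stayed unnamed. Dental pulp-like cells numbered 4089, dental follicle-like cells 1230, odontoblast-like cells 863, perivascular-like cells 246 and glia-like cells 94. The perivascular-like class depended on the clustering. It held 78 cells at a resolution of 0.5 and 260 without integration, so its levels below hold for the 246 cells of the main clustering. Those cells scored 2.6 on the perivascular markers, as a mean of standardized cluster levels. On the mesenchyme markers they scored 1.076, against 1.101, 1.193 and 1.378 in the follicle-like clusters, so the class may hold cells other than pericytes. The glia markers Sox10, Mbp, Foxd3, Cdh19, S100b and Erbb3 were each higher in glia-like cells than in other cells in 4 of 4 libraries. Of 12 pulp markers 10 were, with Sfrp2 higher in no library, and of 10 follicle markers 9 were, with Foxd1 higher in none. The pulp-like cluster led by Grik1 had no pulp marker among its 10 leading genes. Cells with a Y-linked UMI and at most 1 Xist UMI made up 38.9% and 36.8% of the Din-KO libraries and 0% of both WT libraries, so the sexes were unevenly spread over the genotypes. Over all kept cells Din was at 33.1 and 24.6 CPM in WT and was still counted in Din-KO, at 17.3 and 21.0, where CPM are UMIs per 1000000. A 3′ count does not show whether the deleted exon is present, so it does not by itself check the labels. Pairs of libraries shared 4 to 12 cell barcodes, and 0 to 4 after filtering. All classes were found by clustering of the same cells, with the 9 genes kept out of the clustering, so differences between classes are described over the libraries and not tested.

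The 9 genes lie on 6 chromosomes of GRCm38. Bdnf spans chr2:109674700-109727007, Gdnf chr15:7810846-7837575, Ntf3 chr6:126101412-126166910, Nts chr10:102481756-102490486, and Ngfr chr11:95568818-95587735. Sema3a, Sema3e and Slit2 lie on chromosome 5, at chr5:13125414-13602565, chr5:14025276-14256689 and chr5:47983138-48307733, and Slit3 is at chr11:35121224-35708507. None shares exons with a gene on its own strand in the annotation. Bdnf shares exons with the antisense gene Gm45346. The start-site regions of the genes differ in short sequence, and the windows below are shown because each holds a motif that few promoters have, printed in capitals. They come from RefSeq promoters of GRCm38.p6, which run from 250 bases before to 50 bases after a start.
Nts, with the AP-1 motif TGAGTCA 207 bases before the start, chr10:102490608-102490637, minus strand: caactctttctgTGAGTCAgaaatcctgag
Slit2, with the TATA motif TATAAA 28 bases before the start, chr5:47983115-47983144, plus strand: ctccggctgctaTATAAAgaccggcggccg
Gdnf, with TATAAA 31 bases before one of its starts, chr15:7810005-7810034, plus strand: cagtgagagctcTATAAAtgcatccccact
Sema3e, with the E-box CACGTG 23 bases after the start, chr5:14025287-14025316, plus strand: gatgcggcgaggCACGTGggctggagacac
Ntf3, with CACGTG 231 bases before one of its starts, chr6:126166958-126166987, minus strand: cggtgcagcccaCACGTGtatttaacccgt
The 9 genes have 17 windows, since some have more than 1 start. On either strand, TGAGTCA was in 5.2% of 32851 windows of all genes and in 1 of these 17, that of Nts. TATAAA was in 13.6% of windows and in 2 of the 17, of Gdnf and Slit2. CACGTG was in 7.15% of windows and in 2 of the 17, of Ntf3 and Sema3e. GGGCGG, the GC box, was in 35.7% of windows and in 8 of the 17, which belong to 6 of the 9 genes, Bdnf, Ngfr, Ntf3, Sema3e, Slit2 and Slit3. A match describes letters in these windows and says nothing of a factor's binding.

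Nts, the neurotensin gene, was highest in the follicle. Levels below are CPM, a gene's UMIs per 1000000 UMIs of a class in one library. They are compared between cells and not between genes, since one transcript gives one 3′ tag but capture differs by gene. In dental follicle-like cells Nts had 1019 and 1341 CPM in WT replicates 1 and 2 and 943.0 and 1154 in Din-KO replicates 1 and 2, a mean of 1114 ± 174 (SD, n = 4 libraries). The pulp-like cells of the same libraries had 49.8, 154, 71.4 and 211. Every follicle-like value was above every pulp-like value, and the difference was 3.40 on the log2(CPM + 1) scale, from 2.45 to 4.33 in single libraries. Follicle-like cells held 77.7% of the 33100 Nts UMIs. Perivascular-like cells came next with 536 ± 341, and their range of 224 to 992 overlapped that of follicle-like cells. Odontoblast-like cells had 80.2 ± 27.0, overlapping with pulp-like cells. On average over libraries, 76.1% of follicle-like cells and 23.6% of pulp-like cells had at least 1 Nts UMI. Thinned to 2000 UMIs per cell, so that depth was equal, these shares were 59.1% and 10.7%, against 1.22% in B-like cells, which should not make the peptide. At most 7 pulp-like, 2 follicle-like and 8 B-like cells of a library were too shallow for this thinning. B-like cells had a median of 2579 to 3550 UMIs and follicle-like cells of 10982 to 18474.

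Within these classes Nts came from particular clusters. The follicle-like cluster led by Bmp3 and Dkk2 had 1506 to 1883 CPM, with 1883 and 1506 in WT and 1544 and 1842 in Din-KO. The cluster led by Sfrp2 and Pcp4 had 704 to 1391 and the cluster led by Spp1 and Mmp13 had 3.09 to 362. In the pulp-like class the Smoc2-led cluster had 317 and 721 in WT and 237 and 529 in Din-KO, and none of the other clusters reached a mean above 31.9. Without the Smoc2-led cluster, a split chosen after seeing the data, the follicle and pulp difference in Nts was 5.53 on the log2 scale. In macrophage-like cells Nts was at 3.92 to 15.96 CPM in 3 libraries and at 146 in Din-KO replicate 2, where 156 UMIs came from a cluster of 5 cells.

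**Figure D1:**
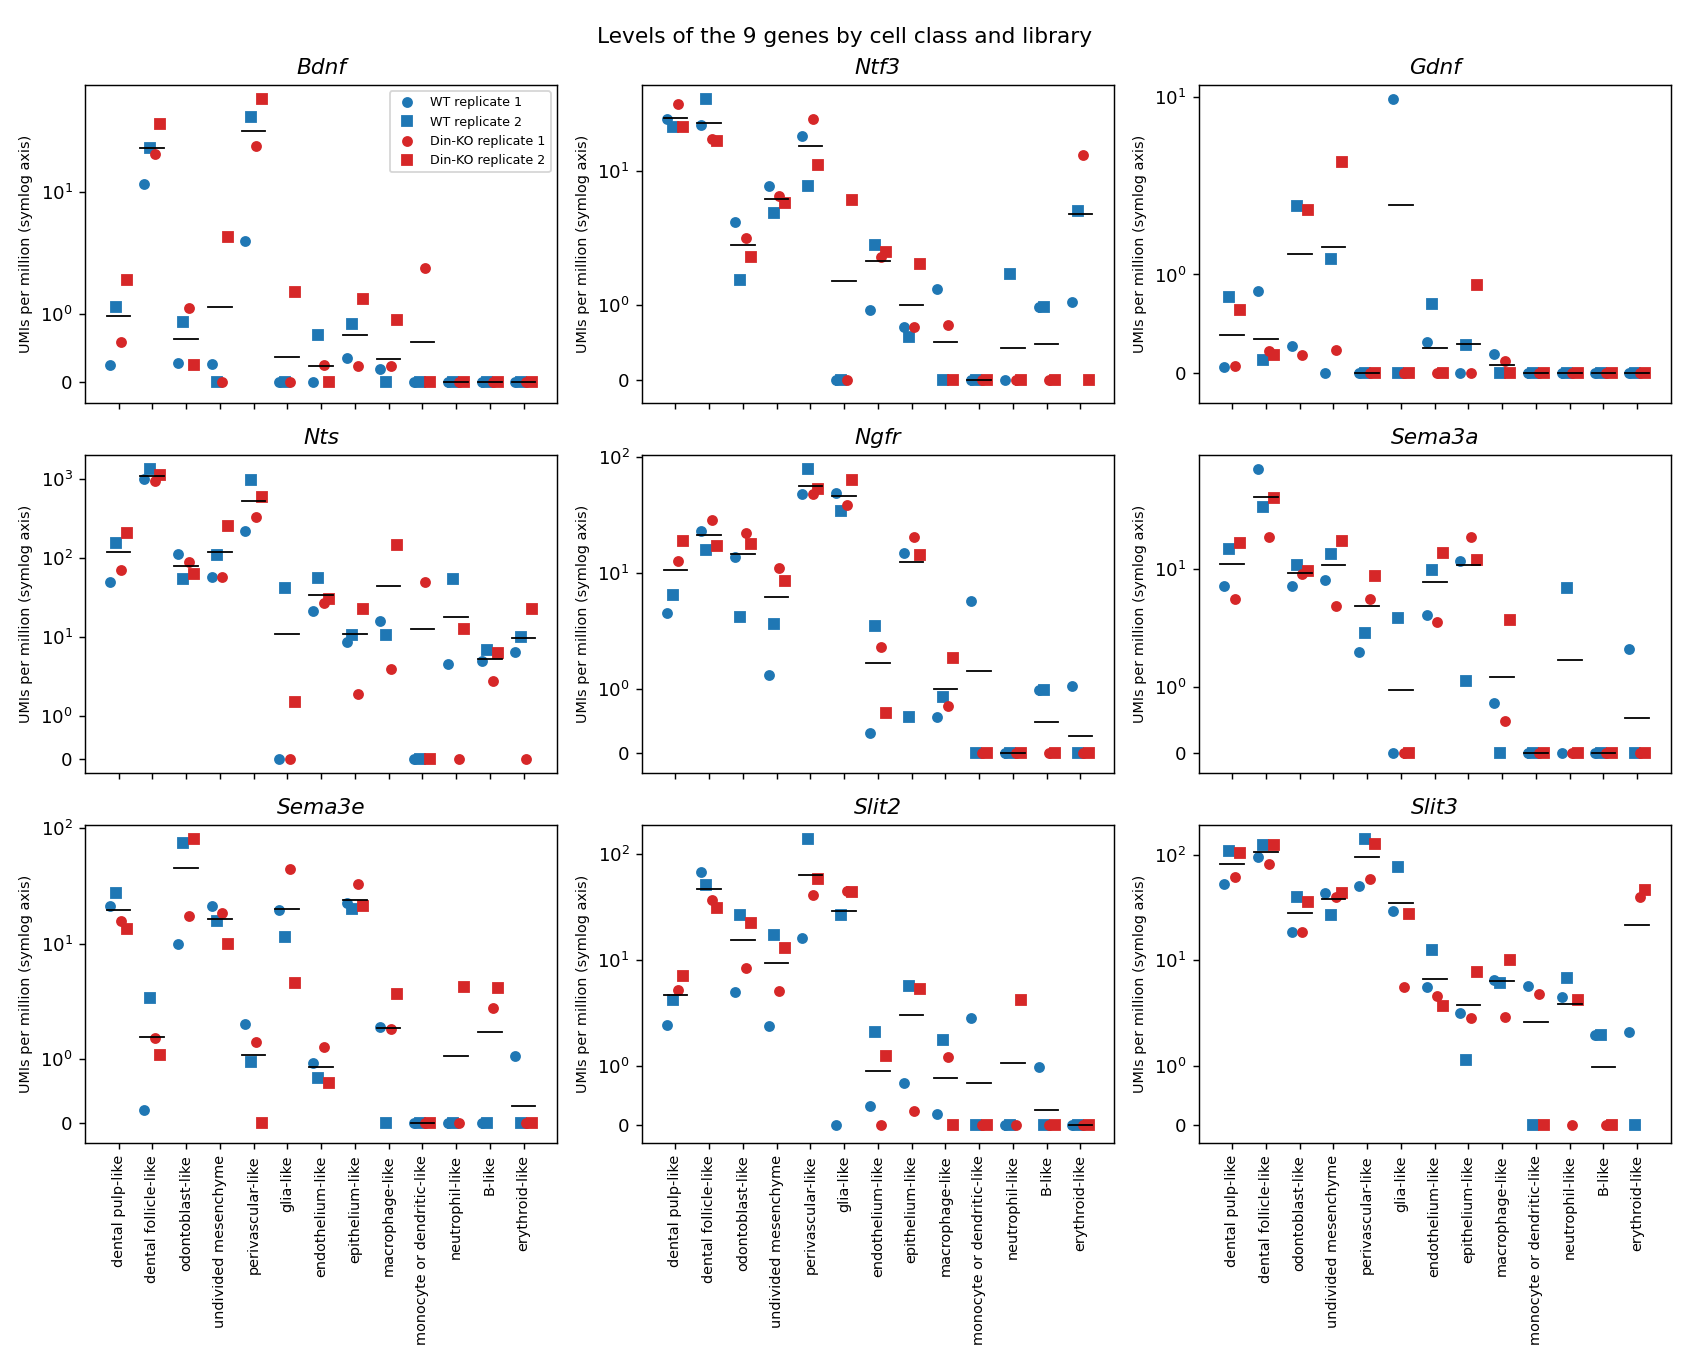
Level of each of the 9 genes (CPM, on an axis that is linear up to 1 and logarithmic above) in 13 cell classes on the x axis. Each point is 1 library, blue for WT and red for Din-KO, circles for replicate 1 and squares for replicate 2, and the line is the mean of the libraries. Nts was near 1114 in follicle-like cells and 121 in pulp-like cells, and Bdnf was highest in perivascular-like and follicle-like cells.

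Bdnf, the neurotrophin that acts through NTRK2, was detected mainly in the follicle-like and perivascular-like cells. Follicle-like cells had 11.7 and 22.9 CPM in WT and 20.5 and 35.9 in Din-KO, a mean of 22.7 ± 10.0 (SD, n = 4). Perivascular-like cells had 4.0 and 41.0 in WT and 24.0 and 57.5 in Din-KO, so that these 2 classes overlapped. In both classes WT replicate 1 was the lowest library and Din-KO replicate 2 the highest. Follicle-like cells held 75.6% of the 689 Bdnf UMIs and pulp-like cells 2.61%, where the level was 0.977 ± 0.723. Every follicle-like library was above every pulp-like library, and the log2 difference was 3.34 to 3.75. Inside the follicle-like class the Sfrp2-led cluster had 25.1 and 35.3 in WT and 35.04 and 62.3 in Din-KO, against a mean of 8.48 in the Bmp3-led cluster. After thinning, 3.74% of follicle-like and 0.339% of pulp-like cells had a Bdnf UMI. No B-like cell did, which allows a share of up to 1.48% to 3.09% of the cells of a library.

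Ntf3, which encodes NT-3 and acts mainly through NTRK3, had overlapping levels in pulp and follicle. Pulp-like cells had 24.1 and 21.1 CPM in WT and 31.2 and 21.0 in Din-KO, and follicle-like cells had 21.9 and 34.0 in WT and 17.2 and 16.7 in Din-KO. The means were 24.3 ± 4.78 and 22.4 ± 8.04, and the ranges overlapped. Thinned shares of cells with an Ntf3 UMI were 3.75% and 3.24%. Perivascular-like cells had 15.2 ± 7.29. Odontoblast-like cells had 2.80 ± 1.14, below every pulp-like and follicle-like library. The pulp-like cluster led by Cnmd and Gpha2 had the highest mean, 58.3, with 38.0 and 85.6 in WT and 56.8 and 52.9 in Din-KO, and the replicate 2 values rest on 14 and 7 UMIs. The pulp-like Smoc2-led cluster had a mean of 9.25.

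Gdnf, the ligand of GFRA1 and RET, was counted only 51 times in all cells. Odontoblast-like cells held 22 of these UMIs, 1 and 11 in the WT libraries and 1 and 9 in the Din-KO libraries. The pulp-like class had 5 UMIs and the follicle-like class 7, and the highest class mean was 2.45 CPM. That value was that of the glia-like class and came from 1 UMI in 1 library. No order of the classes could be read from counts of this size. The share of odontoblast-like cells with a Gdnf UMI was 2.17%, and 0.508% after thinning.

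**Figure D2:**
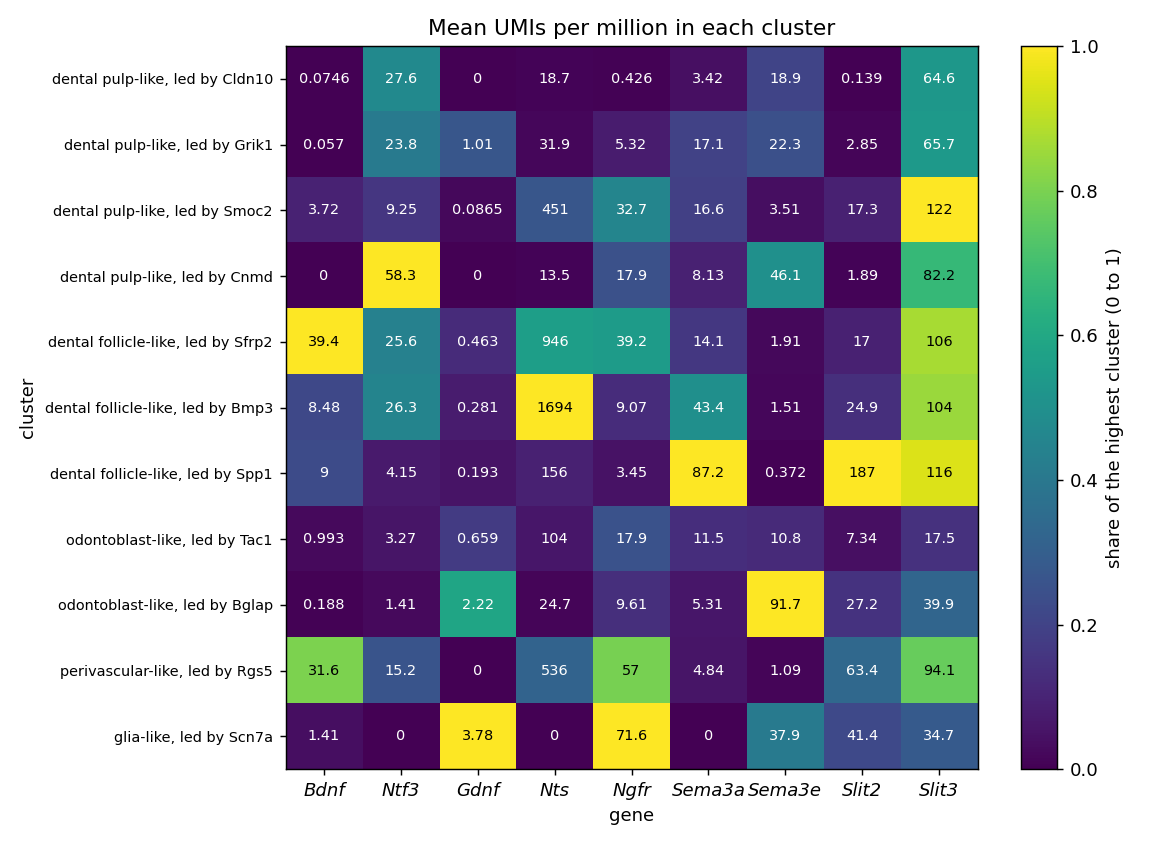
Mean level over libraries (number in each cell, CPM) of the 9 genes on the x axis in clusters of 5 classes on the y axis, named by their leading gene. Color gives the level as a share of the highest cluster for that gene. Bdnf was highest in the Sfrp2-led cluster (39.4), Nts in the Bmp3-led cluster (1694), Slit2 in the Spp1-led cluster (187) and Sema3e in the Bglap-led cluster (91.7), and the glia-like Gdnf value (3.78) rests on 1 UMI.

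Sema3a, a repellent of sensory axons, was higher in follicle-like than in pulp-like cells in 4 of 4 libraries. Follicle-like cells had 70.5 and 33.7 CPM in WT and 18.9 and 40.1 in Din-KO, a mean of 40.8 ± 21.7. Pulp-like cells had 7.20 and 15.0 in WT and 5.56 and 16.5 in Din-KO, a mean of 11.1 ± 5.49, so that no pulp-like library reached the lowest follicle-like one. Epithelium-like cells had 10.8 ± 7.21 and odontoblast-like cells 9.23 ± 1.48, and these overlapped with pulp-like cells. The Spp1-led follicle-like cluster had a mean of 87.2, with 185 and 50.6 in WT and 83.8 and 29.7 in Din-KO, and the Bmp3-led cluster had 43.4.

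Sema3e, the ligand of PLXND1, was higher in pulp-like than in follicle-like cells in 4 of 4 libraries. Pulp-like cells had 21.1 and 27.6 CPM in WT and 15.8 and 13.4 in Din-KO, a mean of 19.5 ± 6.34. Follicle-like cells had 0.209 and 3.42 in WT and 1.54 and 1.09 in Din-KO, and 40 of 2070 Sema3e UMIs were theirs. The log2 difference of follicle against pulp was −3.10 on average, with −2.70 as the value nearest 0. Odontoblast-like cells had 10.0 and 74.9 in WT and 17.2 and 80.7 in Din-KO, higher in both second replicates. The Bglap-led cluster, with Dspp and Dmp1 among its leading genes, made up 16.6% and 52.8% of odontoblast-like cells in WT and 12.9% and 43.4% in Din-KO, and it had 25.4 and 125 CPM in WT and 53.4 and 163 in Din-KO. The Tac1-led odontoblast-like cluster had a mean of 10.8. Epithelium-like cells had 24.1 ± 5.92, close to the pulp level.

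Slit2 was higher in follicle-like than in pulp-like cells, while Slit3 differed less. Follicle-like cells had 67.8 and 51.1 Slit2 CPM in WT and 37.2 and 30.7 in Din-KO, a mean of 46.7 ± 16.5, and pulp-like cells had 2.42 and 4.22 in WT and 5.19 and 6.996 in Din-KO, a mean of 4.71 ± 1.91. The log2 difference was 1.99 to 4.33, positive in 4 of 4 libraries. The Spp1-led cluster had 210 and 208 in WT and 244 and 86.3 in Din-KO, while the Sfrp2-led cluster had a mean of 16.96. Perivascular-like cells had 63.4 ± 52.8, in a range of 16.01 to 138 that included every follicle-like value. Glia-like cells had 28.8 ± 20.9, from 0 in WT replicate 1 to 44.4 in Din-KO replicate 1, on 44 UMIs in all. Slit3 had its highest means in 3 classes at overlapping levels, 106 ± 21.4 in follicle-like, 94.1 ± 46.1 in perivascular-like and 81.4 ± 27.9 in pulp-like cells. Its log2 difference of follicle and pulp was 0.42 on average, positive in 4 of 4 libraries. Glia-like cells, at 5.55 to 76.7, overlapped with pulp-like cells. Odontoblast-like cells had 28.1 ± 11.2.

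Ngfr, the receptor among the 9 genes, was highest in perivascular-like and glia-like cells. Perivascular-like cells had 48.0 and 79.1 CPM in WT and 48.0 and 53.1 in Din-KO, a mean of 57.0 ± 14.9. Glia-like cells had 49.0 and 34.5 in WT and 38.9 and 63.6 in Din-KO, a mean of 46.5 ± 12.9 on 63 UMIs, and the 2 classes overlapped. Every glia-like library was above every follicle-like one, where the level was 21.2 ± 5.84, and every pulp-like one, where it was 10.7 ± 6.58. Thinned to 2000 UMIs, 10.9% of glia-like, 4.59% of follicle-like and 1.65% of pulp-like cells had an Ngfr UMI, against 0.127% of B-like cells. The glia-like class held a Scn7a-led cluster of 58 cells, with 75.6 and 64.6 in WT and 67.4 and 78.7 in Din-KO. In the pulp-like class Ngfr was highest in the Smoc2-led cluster, with a mean of 32.7, and in the follicle-like class in the Sfrp2-led cluster, with 39.2. The median UMIs per cell were 5204 to 10111 in glia-like and 6682 to 10382.5 in pulp-like cells.

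The ligands other than the SLIT genes and Sema3e had few UMIs in glia-like cells. Bdnf had 1 UMI there, Ntf3 4, Gdnf 1, Nts 12 and Sema3a 1. With 0 UMIs in a glia-like library, a level of up to 29.4 and 11.5 CPM in WT and 16.7 and 4.54 in Din-KO could go unseen. In WT replicate 1 this limit was above the follicle-like levels of Bdnf and Ntf3. Sema3e had 16 UMIs and a level of 20.02 ± 17.4, and Slit3 had 42 UMIs and 34.7 ± 30.0. The glia-like cells of WT replicate 2 had 10090 CPM of 9 mesenchyme markers, 1715 of 9 perivascular markers and 763.5 of 6 endothelium markers, while the other 3 libraries ranged from 1661 to 4682, from 166.5 to 349.9 and from 19.6 to 339. Leaving out the cells with the highest doublet scores cut the glia-like cells of WT replicate 2 from 15 to 7. Their UMIs fell from 260629 to 29758. Kept cells were 14 of 14 in WT replicate 1, 19 of 20 in Din-KO replicate 1 and 40 of 45 in Din-KO replicate 2. The part of these markers, and of the cells left out, in the glia-like values of WT replicate 2 was not tested. Of the 12 Nts UMIs in glia-like cells, 11 came from that library.

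Receptors for the cues were read in glia-like, pulp-like and follicle-like cells from lists of receptor genes. Of the neurotrophin receptors, the glia-like class had Sort1 at 110 ± 63.9 CPM, Sorcs2 at 49.3 ± 26.8 and Ntrk3, the receptor of NT-3, at 39.9 ± 22.1. Sort1 ran from 49.9 to 186 there, above the highest follicle-like and pulp-like libraries at 25.5 and 11.9. In pulp-like cells Ntrk3 was at 86.4 ± 35.5, Sort1 at 9.78 ± 2.13 and Ntrk2, the receptor of BDNF, at 4.402 ± 1.47, and in follicle-like cells Sort1 was at 22.6 ± 4.24, Ntrk3 at 12.2 ± 9.70 and Sorcs2 at 2.56 ± 0.525. Of the GDNF family receptors, the neural adhesion molecule gene Ncam1 was at 215 ± 78.3, Gfra3 at 104 ± 42.9 and Gfra2 at 98.3 ± 41.4. Gfra3 was at 49.0 to 150 in glia-like cells and at most 1.05 in follicle-like and 0.636 in pulp-like libraries. Ncam1 was at 757 ± 156 in follicle-like and 102 ± 44.8 in pulp-like cells, Gfra2 at 17.4 ± 5.79 and 39.7 ± 6.08, and Gfra4 at 23.7 ± 3.19 and 15.1 ± 5.26. Outside the rule for named genes and chosen after the values were seen, Ret, the kinase of this family, had 1 UMI in glia-like cells, 98 in follicle-like cells and 55 in pulp-like cells. These are raw counts from classes of unlike depth. Glia-like cells held 102105 to 660878 UMIs per library, follicle-like cells 4541009 to 7595703 and pulp-like cells 1572289 to 15689344. A lower Ret level in glia-like cells cannot be read from 1 UMI. Gfra1, which binds GDNF and was chosen in the same way, was at 75.5 ± 24.9 CPM in glia-like cells.

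Neurotensin binds sortilin, the product of Sort1, as well as the receptors encoded by Ntsr1 and Ntsr2, which were read in 3 classes. Ntsr1 was at 0 in the glia-like and pulp-like classes and at 0.0880 ± 0.108 CPM in the follicle-like class, and Ntsr2 was at 0 in all 3. With no UMI in any glia-like cell, up to 6.67% to 21.4% of the cells of a library could still show one, and up to 0.157% to 1.90% of pulp-like cells, which limits cells with a UMI and not cells that express the genes. Semaphorin receptors in glia-like cells were led by Plxnd1, the receptor of SEMA3E, at 121 ± 60.4, Nrp1 at 108 ± 97.6 and Nrp2 at 55.5 ± 32.2, with Nrp1 at 253 in WT replicate 2 and at 49.0 to 72.6 in the other libraries. Plxnd1 was at 158 to 222 in pulp-like cells and at 19.0 to 21.5 in follicle-like cells. Nrp2 was at 203 to 264 in follicle-like cells and at 20.2 to 52.6 in pulp-like cells. Plxna2 was at 30.2 ± 8.92 and 27.9 ± 3.56 in follicle-like and pulp-like cells, and Plxna1 at 27.2 ± 3.49 in follicle-like cells. The Slit receptor Robo1 was at 44.1 to 88.3 in pulp-like and at 22.5 to 40.9 in follicle-like cells, and Robo2 was at 9.05 to 18.4 and at 25.5 to 42.0. In glia-like cells Robo1 was at 3.26 ± 5.55, Robo2 at 2.88 ± 5.76 and the endothelial Robo4 at 14.4 ± 14.5.

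**Figure D3:**
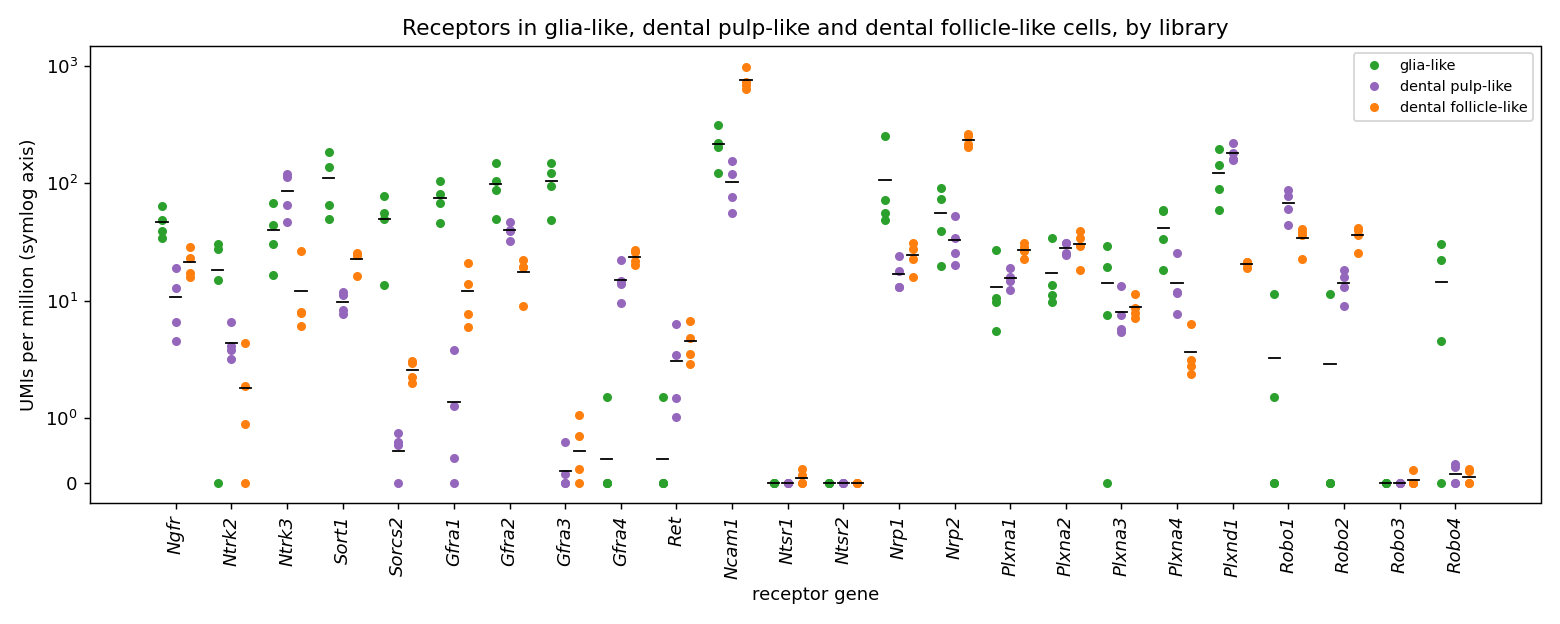
Level (CPM, axis linear up to 1 and logarithmic above) of Ngfr and the receptor lists on the x axis in glia-like, dental pulp-like and dental follicle-like cells. Each point is 1 library and the line is the mean. Gfra3 was at 49.0 to 150 in glia-like cells and at most 1.05 in the other classes shown, Plxnd1 was higher in pulp-like than in follicle-like cells, and Nrp2 the reverse.

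Other ligands and cues from lists chosen with the receptors were also placed by class. Pulp-like cells had Nrtn, another GDNF family ligand, at 15.8 ± 10.7 CPM and follicle-like cells at 85.2 ± 33.6. Manf was at 195 ± 12.4 and 290 ± 15.0. In glia-like cells Cntf, a factor made by Schwann cells, was at 140 ± 69.7, Manf at 171 ± 76.4 and Nrtn at 5.47 ± 6.39. Among guidance cues the glia-like cells had Sema3b at 307 ± 115, Sema3g at 80.9 ± 53.3 and Sema3d at 69.3 ± 16.1, follicle-like cells Sema3b at 70.1 ± 40.0, the netrin gene Ntn1 at 44.6 ± 24.9 and Ntn3 at 20.8 ± 5.91, and pulp-like cells Sema3b at 21.5 ± 8.28, Rgmb at 12.8 ± 4.55 and Ntn3 at 11.4 ± 2.62. Of the netrin receptors, Unc5b, Unc5c and Neo1 were at 121 ± 41.4, 105 ± 25.4 and 104 ± 10.6 in pulp-like cells. In follicle-like cells Neo1 was at 109 ± 18.6, Unc5b at 21.9 ± 9.91 and Unc5c at 7.85 ± 1.96, and in glia-like cells these 3 were at 30.1 ± 13.7, 16.4 ± 16.2 and 4.19 ± 4.87.

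The genes whose pattern over cell classes was most like each of the 9 were found by Pearson's r of log2(CPM + 1) over 44 class and library sums of 13 classes, among 12166 genes. The sums of one library share its depth and free RNA, and r is given as a description. Bdnf was most like Grem1 (r = 0.958), the BMP antagonist, then Aldh1a2 (0.925) and Hpse2 (0.912). Nts was most like Foxf2 (0.922), Twist1 (0.917) and Dipk2a, and Slit3 was most like Scarf2 (0.959), Bicc1 and Ctsk. Ntf3 was closest to 9530026P05Rik (0.900), Foxd2 and Runx1t1, and Slit2 to Fibin (0.857), Col5a1 and Fzd1. Ngfr was closest to Ctxn1 (0.866), Sema3a to Lrch2 (0.858) and Sema3e to Scrn1 (0.815). Gdnf, with 51 UMIs, had no gene above 0.646. Aldh1a2 and Twist1 were among the markers that named the classes.

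The genotype comparison asked whether the cues differed between Din-KO and WT. UMIs were summed per library and class and compared with edgeR's quasi-likelihood test, with p-values adjusted by Benjamini-Hochberg over all genes tested. Without a replicate block none of the 9 genes passed an adjusted p of 0.05 in any class. With it, Ngfr did in pulp-like cells, where 183 of 13369 genes were called higher and 84 lower. It also did in mesenchyme-like cells (pulp-like, follicle-like, odontoblast-like and 805 undivided mesenchyme cells), where 193 of 15179 were called higher and 78 lower. Without the block, in pulp-like cells 2 of 13369 genes were called higher in Din-KO (0.015%) and 0 lower (0%). The 2 were the Y-linked genes Ddx3y and Eif2s3y, which were also the 2 called of 12718 in follicle-like cells (0.0157% higher and 0% lower). In all mesenchyme-like cells 0 of 15179 genes were called by edgeR in either direction (0%), with 151 at an unadjusted p under 0.05, and DESeq2 called 16. In glia-like cells 0 of 4132 were called by edgeR (0%), 103 had an unadjusted p under 0.05, and DESeq2 called 2.

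Ngfr had the largest log2 fold change among those of the 9 genes that were tested in pulp-like cells, 7 in all. Scaled by TMM, it had 4.81 and 6.15 CPM in WT and 13.2 and 18.5 in Din-KO, so the Din-KO pair lay above the WT pair. The log2 fold change was 1.53 (SE 0.36, unadjusted p = 0.0034, adjusted p = 1.00, edgeR quasi-likelihood test). Over all mesenchyme-like cells it was 0.84 (SE 0.23), with 8.56 and 10.3 in WT and 16.7 and 17.2 in Din-KO. Besides pulp-like cells, mean Ngfr CPM in WT and Din-KO was 8.92 and 20.1 in odontoblast-like cells. It was 2.49 and 9.84 in undivided mesenchyme and 19.5 and 22.9 in follicle-like cells. Odontoblast-like and undivided cells were not tested alone. The Din-KO pair lay above the WT pair for 11.7% of genes in pulp-like cells, where it did for Ngfr and Slit2, and for 10.2% in all mesenchyme-like cells, where it did for 1 of the 9 genes and lay below it for none (7.77% of genes). The Smoc2-led cluster, where pulp-like Ngfr was highest, made up 11.4% and 17.5% of pulp-like cells in WT and 29.4% and 38.0% in Din-KO. Within that cluster the libraries overlapped, with 26.7 and 32.0 in WT and 43.6 and 28.4 in Din-KO. In the Grik1-led cluster they were 2.96 and 1.77 in WT and 6.30 and 10.3 in Din-KO, on 13, 2, 30 and 5 UMIs. Ngfr in the Cnmd-led cluster ran from 0 to 60.5 CPM over the libraries. The highest value was that of Din-KO replicate 2, where this cluster had 16 cells. Without the Smoc2-led cluster the log2 fold change of Ngfr in pulp-like cells was 1.94 (SE 0.72, adjusted p = 1.00, edgeR quasi-likelihood test). In cells that had 3 or more Xist UMIs without a Y-linked one it was 1.18 (SE 0.42). All 10 dissociation stress genes were also positive in pulp-like cells, with a median log2 fold change of 0.88, with 0 past the threshold. Their summed level was 595 and 2097 CPM in WT and 1259 and 3866 in Din-KO, and the part of handling in these values was not tested.

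Sema3e and Slit2 also had non-overlapping groups in pulp-like cells. Sema3e had 22.4 and 26.1 in WT and 16.4 and 12.9 in Din-KO, a log2 fold change of −0.68 (SE 0.27). Its mean in the Smoc2-led cluster was 3.5 CPM, against 18.9, 22.3 and 46.1 in the Cldn10-led, Grik1-led and Cnmd-led clusters. Slit2 had 2.57 and 3.98 in WT and 5.38 and 6.78 in Din-KO, on 38 and 11 UMIs in WT and 70 and 11 in Din-KO, a log2 fold change of 0.92 (SE 0.49). Its mean was 17.3 CPM in the Smoc2-led cluster, against 0.139, 2.85 and 1.89 in the Cldn10-led, Grik1-led and Cnmd-led clusters. Over the libraries Slit2 ran from 13.4 to 19.7 in the Smoc2-led cluster. The Smoc2-led cluster made up 11.4% and 17.5% of pulp-like cells in WT and 29.4% and 38.0% in Din-KO. A fit of pulp-like cells without that cluster tested 6 genes of the set, against 7 in the main fit. No Slit2 or Sema3e value from that fit is given here. The part of this cluster mix in the Slit2 and Sema3e values was not otherwise tested. The Din-KO pair lay below the WT pair for 11.5% of all genes, and for Sema3e alone among the 7 tested here. Nts had 53.0 and 145 in WT and 74.1 and 204 in Din-KO, a difference of 0.48 (SE 0.58) that was within the spread between libraries. Its mean was 451 CPM in the Smoc2-led cluster, with a range of 237 to 721. In the Cldn10-led, Grik1-led and Cnmd-led clusters it was 18.7, 31.9 and 13.5. Without the Smoc2-led cluster the Nts difference changed sign, and the part of the cluster mix in it was not otherwise tested. Ntf3 differed by 0.24 (SE 0.30), Slit3 by 0.05 (SE 0.36) and Sema3a by −0.11 (SE 0.56). The adjusted p was 1.00 for each of these 6 genes by edgeR.

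In follicle-like cells 5 of 7 tested genes had a negative log2 fold change. Slit2 had 70.0 and 51.7 in WT and 37.4 and 29.6 in Din-KO, a log2 fold change of −0.86 (SE 0.25, unadjusted p = 0.015, adjusted p = 1.00, edgeR quasi-likelihood test), and Ntf3 had 22.6 and 34.4 in WT and 17.3 and 16.1 in Din-KO, a log2 fold change of −0.78 (SE 0.27, unadjusted p = 0.029, adjusted p = 1.00, by edgeR). The Din-KO pair lay below the WT pair for these 2 of 7 genes and for 11.8% of all genes tested, and above it for none of the 7 (12.2% of all genes). The Ntf3 values lay the same way in the Sfrp2-led cluster, with 29.3 and 43.9 in WT and 15.1 and 14.0 in Din-KO, and in the Bmp3-led cluster, with 27.9 and 30.5 and with 25.3 and 21.5. The Slit2-rich Spp1-led cluster made up 26.9% and 11.5% of follicle-like cells in WT and 12.8% and 13.9% in Din-KO, and without it the Slit2 log2 fold change was −0.77 (SE 0.54). In cells that had 3 or more Xist UMIs without a Y-linked one it was −1.42 (SE 0.54), with an adjusted p of 1.00 in edgeR. Bdnf differed by 0.64 (SE 0.40), Nts by −0.22 (SE 0.24), Sema3a by −0.87 (SE 0.47), Ngfr by 0.18 (SE 0.35) and Slit3 by −0.15 (SE 0.27), with overlapping libraries for all 5. The 9 dissociation stress genes tested in follicle-like cells were all positive, with a median of 0.63 and 0 past the threshold, and the summed level of the list was 558 and 1327 CPM in WT and 1122 and 2161 in Din-KO. Its part in these values was not tested.

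**Figure D4:**
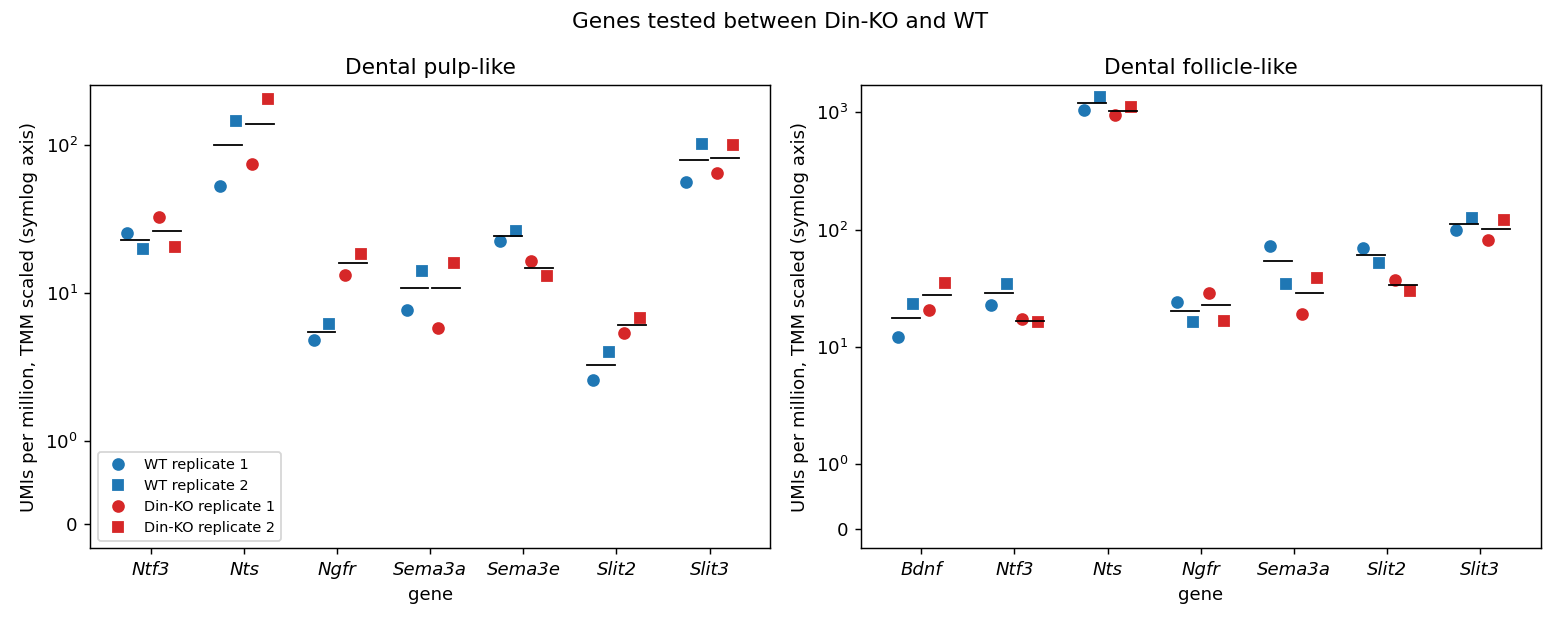
Level of the tested genes on the x axis (CPM scaled by TMM, axis linear up to 1 and logarithmic above) in dental pulp-like cells at left and dental follicle-like cells at right. Points are libraries and lines are means of 2 libraries. Ngfr and Slit2 were higher in both Din-KO libraries in pulp-like cells, and Slit2 and Ntf3 lower in both in follicle-like cells. None of these passed the adjusted test in the fit without a replicate block.

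**Figure D5:**
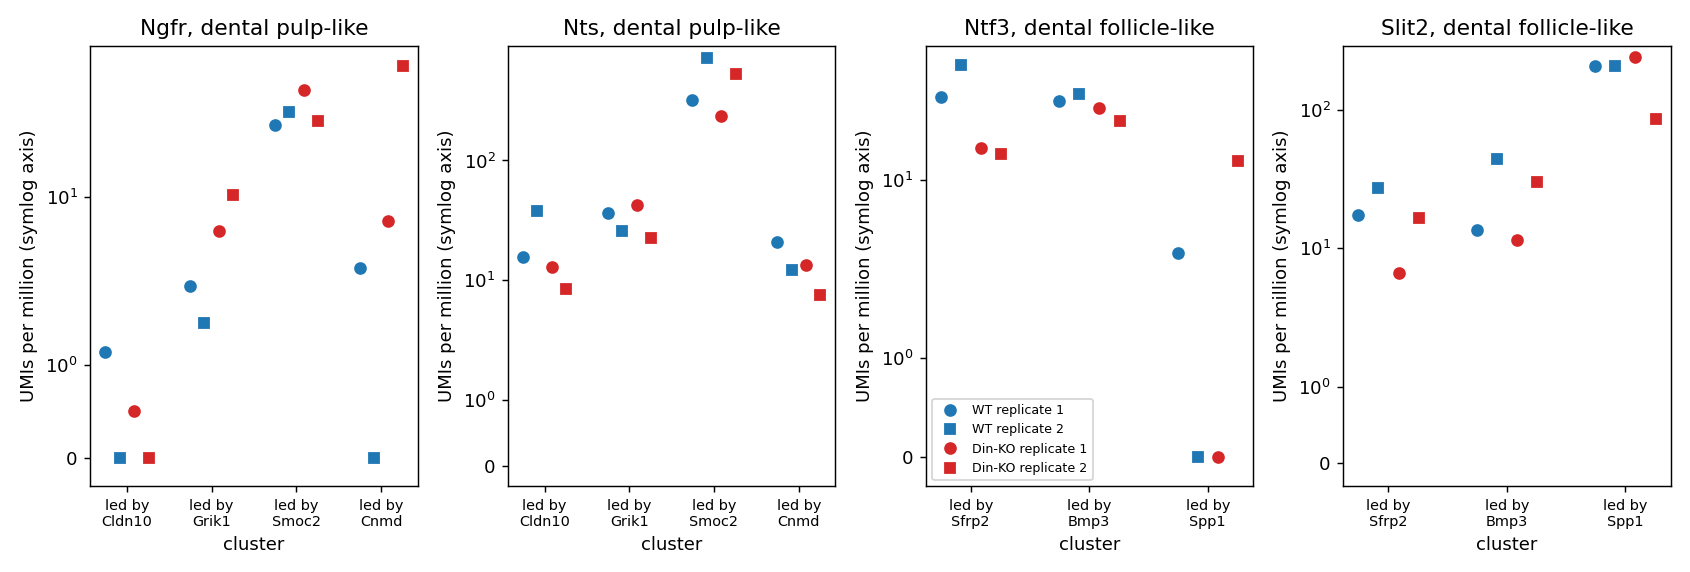
Level of 4 gene and class pairs (CPM, axis linear up to 1 and logarithmic above) in each cluster, named by its leading gene, with 1 point per library. Ngfr overlapped between genotypes in the Smoc2-led cluster, Ntf3 was lower in both Din-KO libraries in the Sfrp2-led cluster, and Slit2 was highest in the Spp1-led cluster.

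The genotype difference in follicle-like cells was compared with that in pulp-like cells in 1 model over 13438 genes, and edgeR called 0 of them (0% in either direction), with 431 at an unadjusted p under 0.05. Slit2 had a difference of −1.82 (SE 0.41, unadjusted p = 0.0033, adjusted p = 1.00, edgeR quasi-likelihood test), Ngfr of −1.33 (SE 0.50) and Ntf3 of −0.92 (SE 0.37), both with an adjusted p of 1.00 in edgeR. In glia-like cells Ngfr, the only one of the 9 genes with enough UMIs to be tested, differed by 0.48 (SE 0.55, adjusted p = 0.998, edgeR), and its libraries overlapped (the Din-KO pair was above the WT pair for 15.1% of genes there and below it for 13.1%). Gdnf was tested only in all mesenchyme-like cells, where it differed by 0.12 (SE 1.32).

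In the fit without a replicate block, the receptor and ligand lists gave no gene past the adjusted threshold either. Among receptors of the neurotrophins, 0 of 3 tested in pulp-like cells and 0 of 3 in follicle-like cells were called. Their log2 fold changes had medians of −0.51 and −0.07, with 1 of 3 positive in each class. In pulp-like cells Sort1 differed by −0.51 (SE 0.32) and Ntrk2 by −0.57 (SE 0.48). Ntrk3, the receptor of NT-3, was the positive one, with a log2 fold change of 1.07 (SE 0.24, unadjusted p = 0.0025, adjusted p = 1.00, edgeR). Of the GDNF family receptors 0 of 5 were called in either class, with a median log2 fold change of 0.54 in pulp-like and 0.24 in follicle-like cells, against −0.01 and −0.02 over all genes. Of the semaphorin receptors 0 of 7 were called in each, with medians of −0.24 and −0.01, and of the Slit receptors 0 of 2. Of the other neurotrophic ligands 0 of 4 and 0 of 5 were called, of the other guidance cues 0 of 11 and 0 of 10, and of the netrin receptors 0 of 4 and 0 of 4.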

How the data were processed

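The authors aligned 10x Genomics 3′ reads to mm10/GRCm38, counted UMIs with Cell Ranger 6.0.2 and deposited the raw counts; builds are named in the submitters' processing notes. A cell was kept if it had 1000 genes or more, mitochondrial UMIs up to 10% and hemoglobin UMIs up to 3%. Libraries were integrated in Seurat 5.3.0 with the cell cycle regressed, 2000 variable genes, 30 principal components and a resolution of 1, with the 9 genes and their lists left out. A cluster was named from marker lists. Scrublet called 0.221% of all cells, and 0.0874% to 0.577% of a library, against a minimum of 0.5% for a working caller. No doublets were removed, and leaving out the 5% of cells with the highest scores was an alternative. Free RNA was not removed, and intervals cover counting error only.

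Counts were summed per library and class and tested in edgeR 4.0.16 (TMM, low-count filter, quasi-likelihood, 2 libraries per group, Benjamini-Hochberg adjustment at 0.05). DESeq2 1.42.0 was an alternative, and the scripts were tested on simulated data. Of 100 genes raised 2-fold there, edgeR called 0% in mesenchyme-like, 2% in pulp-like and 10% in follicle-like cells. Of 100 raised 4-fold, it called 27%, 68% and 86%. A gene that was not called could thus still differ 2-fold or, less often, 4-fold. The raised genes were drawn from all tested genes and not matched to the counts of the 9 genes. Levels are CPM of a class and library, and classes were compared on log2(CPM + 1). The 9 genes were always named, with the 3 highest of each other list, any past the threshold, and the 3 genes most like each member. Members and lists were chosen with earlier results of these data known. Alternatives were DESeq2 and its size factors, no low-count filter, each library left out, a replicate block, Xist cells only, other doublet, resolution and integration settings, and 2 cluster exclusions chosen after seeing the data. Promoter motifs were searched on both strands. No protein sequence table was used here. A few listed genes and the values that need them are not reported here.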

Additional observations from a re-analysis of the deposited data

Results flagged for a closer look

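Slit2 was higher in both Din-KO libraries than in both WT libraries in dental pulp-like cells and lower in both in dental follicle-like cells. It was flagged for these opposite positions. The Din-KO pair lay above the WT pair for 11.7% of genes in pulp-like cells and below it for 11.8% in follicle-like cells. The difference between the 2 genotype differences of Slit2 was −1.82 on the log2 scale. It was tested in edgeR and had an adjusted p of 1.00, so it did not pass the threshold. With 1 library left out it ran from −2.29 to −1.03, the latter without WT replicate 1, and in cells with Xist and without Y-linked UMIs it was −2.84. The pulp-like counts behind it were 38 and 11 UMIs in WT and 70 and 11 in Din-KO. Pulp-like Slit2 was highest in the Smoc2-led cluster, with a mean of 17.3 CPM and a range of 13.4 to 19.7 over the libraries. That cluster made up 11.4% and 17.5% of pulp-like cells in WT and 29.4% and 38.0% in Din-KO. The part of this cluster mix in the Slit2 difference was not tested. Groups of 2 libraries were too small to look for an outlying library.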

How the results depend on the processing

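Counts of genes called between the genotypes depended on the fit. edgeR called 2 genes in dental pulp-like cells, 2 in dental follicle-like cells and 0 in mesenchyme-like and glia-like cells. DESeq2 called 16, 41, 16 and 2. Without the filter on low counts edgeR called 59, 154, 9 and 66. In cells with Xist and no Y-linked UMI it called 0 in pulp-like and 0 in follicle-like cells, at a resolution of 0.5 it called 0 in follicle-like cells, and without the Smoc2-led or the Spp1- and Mmp13-led cluster 0 and 1. With 1 library left out, the counts ran from 3 to 64 in pulp-like, 15 to 99 in follicle-like, 0 to 4 in mesenchyme-like and 18 to 122 in glia-like cells, and from 0 to 1 for the difference between classes, where the lone library of a group is assumed to vary like the others. Replicate numbers were shared between the genotypes, and the library names in the labels take one form for both first replicates and another for both second replicates, but no label says that this marks a batch, and the deviations of same-numbered libraries correlated by 0.787, 0.546, 0.593 and 0.227 in mesenchyme-like, pulp-like, follicle-like and glia-like cells. With the replicate block edgeR called 271 of 15179, 267 of 13369, 51 of 12718 and 4 of 4132 genes in that order. In that edgeR fit Ngfr passed in pulp-like (log2 fold change 1.49, adjusted p = 0.00445) and mesenchyme-like cells (0.86, adjusted p = 0.020).

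Some genotype differences changed sign between settings. Nts in pulp-like cells was −0.021 in Xist cells and −0.18 without the Smoc2-led cluster, Slit3 was −0.16 without it, Sema3a was 0.15 in Xist cells, 0.60 without integration and 0.71 without the Smoc2-led cluster, and Ngfr in follicle-like cells was −0.040 at a resolution of 0.5. With 1 library left out the log2 fold changes ran from −0.17 to 0.50 for Ntf3, −0.40 to 1.37 for Nts, −0.86 to 0.62 for Sema3a and −0.33 to 0.53 for Slit3 in pulp-like cells, from −0.23 to 0.53 for Ngfr and −0.46 to 0.14 for Slit3 in follicle-like cells, and from −1.97 to 1.46 for Gdnf in mesenchyme-like cells. The follicle and pulp difference in level ran from −0.31 to 0.17 for Gdnf and −0.42 to 0.072 for Ntf3, and kept its sign for the other 7 genes. Fewer than 16 glia-like cells in each WT library and 51 Gdnf UMIs limit what could be seen.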
